A study of Arabidopsis thaliana with 12 samples.

Results

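The data described here are the 6 Col-0 libraries of a 12-library RNA sequencing series on Arabidopsis thaliana seedlings, and the comparison is that of L-glutamate (L-Glu) with urea in this wild type. The 3 L-Glu libraries came from seedlings given 20 mM L-Glu for 48 h, and the 3 urea libraries from seedlings given 20 mM urea for 48 h. All seedlings were 14 days old and were raised in liquid culture with sucrose under continuous light, and both groups are the unmodified Col-0 accession. No untreated group was analysed here, so every rise or fall is that of L-Glu relative to urea, and responses to L-Glu and to urea cannot be told apart. The other 6 libraries are the same treatments in sid2, a mutant that lacks the isochorismate synthase of salicylic acid synthesis, and they are used only to estimate the spread and to set effects side by side. The sid2 samples are known by their titles, since the labels list Col-0 as the genotype of all 12. Whether the 3 libraries of a group are separate cultures is not labelled, and the p-values rest on the spread between libraries, which may be technical.

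The members are all 14897 genes of the deposited table, without selection by their response. They are described by process through 51 gene lists, 11 for transport, 9 each for the cell wall and lipids, 8 for hormones and 7 each for amino acids and carbon metabolism. The lists hold 1608 genes, of which 1133 had values. No list was made for immunity or photosynthesis, though some listed genes also serve them. Gene symbols are those of RefSeq for the locus identifiers of the table. Nothing is said of genes that the table does not list. A listed gene that is low under one treatment may have entered the table through the other, so counts over measured members are not counts over the whole list.

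Glutamate is the compound into which plants fix ammonium, through glutamine synthetase and glutamate synthase, and it donates the amino group of most other amino acids. It can be decarboxylated to GABA or used for proline, arginine and glutathione, and outside the cell it is known to set off calcium signals through glutamate receptor-like channels. Urea is split by urease to ammonium and carbon dioxide and therefore enters the same assimilation route from the other side.

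The deposited values are normalized read abundances without a stated normalization, and their number of reads is unknown. They are called signal here. Differences were tested with limma on log2 of the signal divided by 3.49, a constant that sets the mean library total to a fixed value, plus 1, and a gene was called at a Benjamini-Hochberg adjusted p under 0.05 over all genes. The L-Glu libraries summed to 3900394 to 4419987 units of signal and the urea libraries to 2564533 to 2760974, while their medians were alike, at 74.1 to 75.7 with L-Glu and 74.96 to 77.2 with urea. Dividing each library by its own total therefore lowered every log2 fold change, by 0.63 for the median gene. Shares of signal given for lists divide by the same totals and so are on this scale, at one total. The median over all genes was -0.05 as deposited, -0.66 on that scale and -0.14 with quantile normalization. Where a scale moved the share of rises among a list's calls by over 10 percentage points, the counts of rises and falls on that scale stand beside its median as those at one total, and likewise for quantile normalization. All 219 genes that the naming rule chose were called without overlap between the L-Glu and urea libraries, and all but MCCB kept their direction in every setting tried. The rule takes the smallest p-values of each list and the called extremes of the table, so this follows in large part from the choice. Of the 754 listed members that were called, 583 kept their call in every setting tried. L-Glu library 2 and urea library 1 stood apart from the others of their groups on minor principal components. Among markers of tissues, 1 of 5 measured root markers rose and 0 fell, and their summed signal was 169 to 199 with L-Glu and 169 to 227 with urea. The rise was that of MYB36 (limma adjusted p = 0.0495), and its call was kept in 4 of 20 alternative settings. Of 5 markers of shoot epidermis, guard cells and leaves 3 fell, with a summed signal of 363 to 507 with L-Glu and 1169.5 to 1249.9 with urea. Of 4 vascular markers 3 fell, with 163 to 186 with L-Glu and 470.4 to 765 with urea. At one total 0 root markers rose and 2 fell, and the shoot and vascular markers each had 0 rises and 4 falls. Of the floral markers only PI had values, at 5.56 to 7.60 with L-Glu and 6.98 to 11.5 with urea, and of 5 seed markers 0 had values. In whole seedlings, fewer cells of a type and less RNA per cell cannot be told apart.

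Of all 14897 genes, 60.1% were called, 29.7% as higher and 30.3% as lower with L-Glu. Among the 1133 listed members, 288 (25.4%) rose and 466 (41.1%) fell, and their median log2 fold change was -0.31, against -0.05 over all genes. Of the calls, 38.2% of those of listed members and 49.5% of those of all genes were rises, and these shares were 21.1% and 26.0% at one total. The 2 groups of Col-0 libraries did not overlap for 763 of the 1133 listed members, against 9201 of all 14897 genes (61.8%). Falls outnumbered rises most among amino acid genes, of which 26 of 175 rose and 74 fell, with a median of -0.49. In lipid metabolism 46 of 205 rose and 91 fell (median -0.34), and in carbon metabolism 52 of 194 rose and 86 fell (median -0.32). Hormone genes had 56 rises and 79 falls among 196, cell wall genes 41 and 50 among 136, and transport genes 68 and 89 among 232. At one total the rises and falls were 14 and 122 for amino acids, 29 and 134 for lipids, 33 and 124 for carbon, 36 and 121 for hormones, 30 and 76 for the wall, and 48 and 134 for transport. Of the 51 list medians 33 lay below that of all genes, and 46 kept their side of it on all 3 scales. On the deposited scale large rises outnumbered large falls. Of the listed members 32 rose and 9 fell by at least 16-fold, and of all genes 540 rose and 124 fell by that much. These large changes were not counted at one total, where every log2 fold change was lower, so whether their balance holds there is not given.

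**Figure D1:**
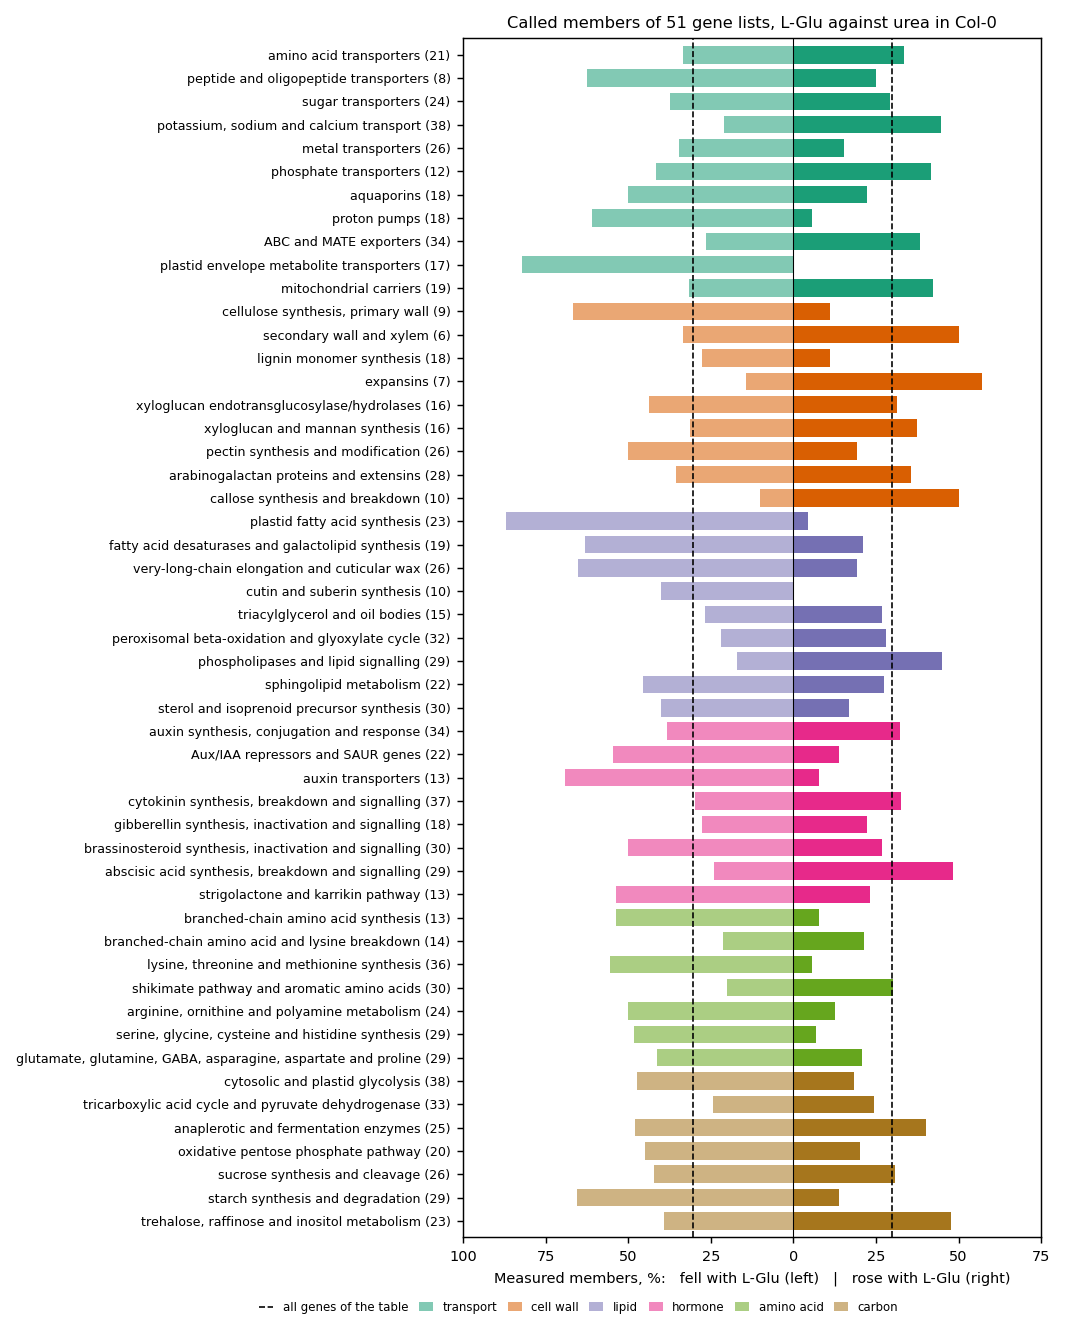
Percentage of measured members of each of the 51 lists that fell (left, pale) or rose (right, dark) with L-Glu against urea in Col-0, with the number of measured members in brackets and colours for the 6 processes. Dashed lines give the percentages over all genes, 30.3% and 29.7%. Plastid fatty acid synthesis and the plastid envelope transporters reach furthest to the left, and expansins, with 7 measured members, furthest to the right.

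The start-site regions of the members with the largest change in each process are shown because the sequences near the start differed in a known element between genes that rose and genes that fell. Each runs from 250 bases before to 50 bases after the annotated start of the gene in the RefSeq TAIR10.1 genome, 5′ to 3′ on the gene's strand, and capitals mark matches to the motifs searched. These were the W box, the element bound by WRKY factors (TTGACC or TTGACT), and the G-box of bZIP and bHLH factors (CACGTG). The others were the I-box of light-regulated genes (GATAAG) and the mitochondrial dysfunction motif. Each motif was searched on its own on both strands, without a check for overlaps between different motifs. For ACA13 (AT3G22910, chr3:8119441-8119740, minus strand) and FBA2 (AT4G38970, chr4:18165959-18166258, minus strand) no motif matched, and the others are AGP1 (AT5G64310, chr5:25721483-25721782, plus strand), PMDH2 (AT5G09660, chr5:2995735-2996034, minus strand), CRF5 (AT2G46310, chr2:19011212-19011511, plus strand) and GAD4 (AT2G02010, chr2:476948-477247, minus strand).
GAD4: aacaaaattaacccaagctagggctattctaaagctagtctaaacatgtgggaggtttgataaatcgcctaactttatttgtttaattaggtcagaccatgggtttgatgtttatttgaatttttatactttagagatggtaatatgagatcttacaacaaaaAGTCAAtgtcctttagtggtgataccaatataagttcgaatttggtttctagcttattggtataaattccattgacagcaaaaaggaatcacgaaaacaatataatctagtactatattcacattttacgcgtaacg
ACA13: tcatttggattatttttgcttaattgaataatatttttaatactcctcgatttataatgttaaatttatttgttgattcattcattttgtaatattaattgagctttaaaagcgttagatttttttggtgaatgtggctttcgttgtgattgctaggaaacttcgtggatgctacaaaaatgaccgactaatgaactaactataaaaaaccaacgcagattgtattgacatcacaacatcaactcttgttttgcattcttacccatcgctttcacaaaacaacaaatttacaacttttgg
AGP1: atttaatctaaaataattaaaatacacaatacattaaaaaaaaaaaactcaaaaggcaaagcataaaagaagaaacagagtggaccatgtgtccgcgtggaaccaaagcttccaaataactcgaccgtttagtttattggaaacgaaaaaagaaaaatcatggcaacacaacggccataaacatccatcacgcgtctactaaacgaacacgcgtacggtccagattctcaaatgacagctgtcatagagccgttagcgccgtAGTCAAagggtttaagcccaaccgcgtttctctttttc
CRF5: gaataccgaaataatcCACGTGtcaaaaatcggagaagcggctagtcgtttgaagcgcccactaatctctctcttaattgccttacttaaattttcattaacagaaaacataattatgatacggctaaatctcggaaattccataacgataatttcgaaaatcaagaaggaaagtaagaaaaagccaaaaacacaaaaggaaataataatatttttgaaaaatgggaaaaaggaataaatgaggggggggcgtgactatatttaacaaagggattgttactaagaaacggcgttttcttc
PMDH2: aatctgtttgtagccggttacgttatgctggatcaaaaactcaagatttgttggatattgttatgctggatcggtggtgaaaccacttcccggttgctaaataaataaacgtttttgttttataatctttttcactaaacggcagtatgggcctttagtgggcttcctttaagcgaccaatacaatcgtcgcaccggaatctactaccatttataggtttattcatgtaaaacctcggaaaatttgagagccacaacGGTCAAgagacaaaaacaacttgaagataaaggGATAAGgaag
FBA2: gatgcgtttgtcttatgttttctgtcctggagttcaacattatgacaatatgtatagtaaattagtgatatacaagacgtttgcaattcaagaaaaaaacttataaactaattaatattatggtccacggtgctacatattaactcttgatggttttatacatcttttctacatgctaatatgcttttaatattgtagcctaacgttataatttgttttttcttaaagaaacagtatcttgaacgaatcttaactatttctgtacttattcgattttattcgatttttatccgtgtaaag

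GAD4 held a W box at -87 to -82 relative to its start, AGP1 one at 13 to 18 and PMDH2 one at 8 to 13, followed by an I-box at 41 to 46, and CRF5 held a G-box at -234 to -229. Over the 14818 genes with such a window, 33.9% held a W box of either form. The share was 43.8% among the 4418 genes that rose and 26.5% among the 4492 that fell, and 56.9% and 25% among those that rose or fell by at least 16-fold. Of the listed members, 21 of the 32 that rose by at least 16-fold and 3 of the 9 that fell by that much held a W box. The I-box was in 15.2% of all windows, 15.3% of those of genes that rose and 16.1% of those that fell, but in 36.3% of the windows of the 124 genes with the largest falls. The G-box was in 9.12% of all windows, 9.46% with a rise and 9.15% with a fall, but in 18.5% of those of the 124 genes with the largest falls, against 10.19% of those of the 540 with the largest rises. The I-box share of the largest rises was 17.0%. The mitochondrial dysfunction motif was in 0.520% of all windows, 0.747% with a rise and 0.467% with a fall. It was in 9 of the 540 windows with the largest rises (1.67%) and 3 of the 124 with the largest falls (2.42%). Each W box of the 3 genes above is read on the opposite strand. These shares describe letters and were not tested, and divergent neighbours can share a window.

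**Figure D2:**
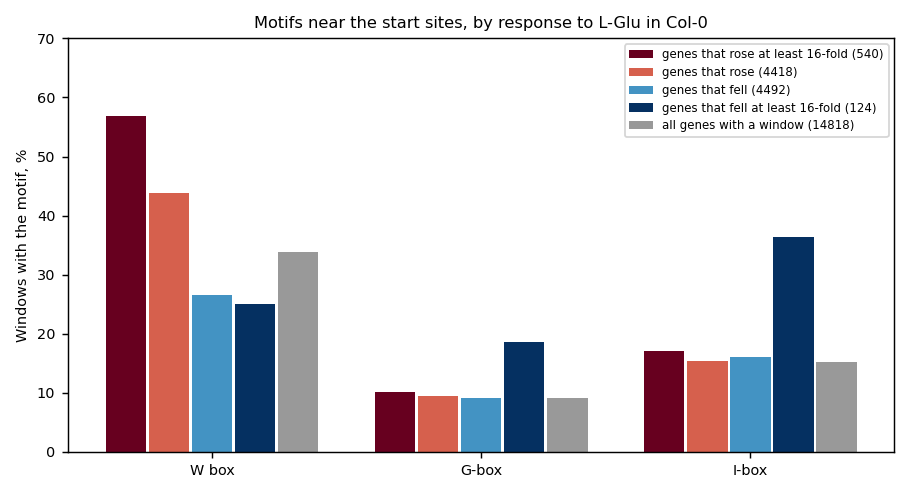
Percentage of start-site windows (vertical axis) that hold a W box, a G-box or an I-box, for genes grouped by their response to L-Glu in Col-0 and for all genes, with the number of windows in brackets. W boxes stand at 56.9% in the genes with the largest rises and at 25% in those with the largest falls, where the I-box stands at 36.3% and the G-box at 18.5%.

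Among transport genes, falls outnumbered rises for proton pumps, aquaporins, carriers of the plastid envelope, and oligopeptide, sugar and metal transporters. For sugar transporters this was not so when urea library 1 or L-Glu library 2 was left out. Rises outnumbered falls for cation transporters, exporters and mitochondrial carriers, though not at one total. The 3 largest rises, those of ACA13, ABCB11 and DIC2, were of these groups. Of 38 measured genes of potassium, sodium and calcium transport, 17 rose and 8 fell (median 0.09, with 15 and 19 at one total). The list held 0.653% to 0.729% of the signal of the L-Glu libraries, against 0.165% to 0.218% of that of the urea libraries, and without ACA13 it held 0.315% to 0.348% with L-Glu and 0.164% to 0.217% with urea. Calcium ATPases, which pump calcium out of the cytosol, led it. ACA13, a calcium pump gene, had a signal of 17401, 11899 and 15867 in the L-Glu libraries, against 26.8, 28.8 and 22.9 in the urea libraries. The L-Glu libraries lay far above all urea libraries (log2 fold change 8.97, SE 0.254, limma adjusted p = 1.51e-15). ACA1 (AT1G27770), a pump gene of the same family, had a signal of 4627, 4475 and 4202 in the L-Glu libraries, against 252, 217 and 196 in the urea libraries (log2 fold change 4.31, SE 0.184, limma adjusted p = 2.10e-13). ACA2, a pump of the endoplasmic reticulum, rose by 3.03 log2 units, whereas ACA4 (AT2G41560), which encodes a pump of the vacuolar membrane, fell to 49.6, 44.7 and 30.2 with L-Glu, against 324, 397 and 329 with urea (log2 fold change -2.99, SE 0.215, limma adjusted p = 4.34e-10). Genes of this pump family thus changed in both directions.

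Among 34 ABC and MATE exporters, which move conjugates, hormones and toxins out of the cytosol, 13 rose and 9 fell (median 0.13, with 9 and 16 at one total). ABCB11 (AT1G02520) had a signal of 6576, 4213 and 6754 in the L-Glu libraries, against 29.5, 18.7 and 19.3 in the urea libraries (log2 fold change 7.81, SE 0.223, limma adjusted p = 1.63e-15). ABCC3, a transporter of glutathione conjugates, rose by 4.97 log2 units (SE 0.233) and ABCB4, an auxin transporter, by 4.56 log2 units (SE 0.215). DTX1, an efflux carrier of the MATE family, rose by 3.94 log2 units. Together the exporters of the list held 0.922% to 1.09% of the signal of the L-Glu libraries, against 0.229% to 0.318% of that of the urea libraries. Of 19 mitochondrial carriers 8 rose and 6 fell (median 0.10, with 5 and 9 at one total). DIC2 (AT4G24570), a dicarboxylate carrier, had a signal of 5382, 3694 and 3542 in the L-Glu libraries, against 35.1, 46.8 and 59.0 in the urea libraries (log2 fold change 6.38, SE 0.324, limma adjusted p = 2.63e-12). DIC1, its close relative, rose by 4.15 log2 units, the NAD carrier NDT1 by 2.89 log2 units and the ADP/ATP carrier AAC2 by 3.16 log2 units. Reads of such paralogs may have been divided between them.

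Proton pumps build the gradient that drives most uptake into plant cells. Of 18 measured pump genes, 1 rose and 11 fell (median -1.01). The plasma membrane ATPase gene AHA2 (AT4G30190) had a signal of 342, 422 and 434 in the L-Glu libraries, against 2606, 1771 and 1327 in the urea libraries (log2 fold change -2.19, SE 0.215, limma adjusted p = 4.41e-08), with urea library 1 the highest. AHA11 and AHA3 of the same family had log2 fold changes of -3.31 and -2.14, and VHA-C, a subunit of the vacuolar proton ATPase, one of -1.46. The list held 0.107% to 0.139% of the signal of the L-Glu libraries, against 0.37% to 0.579% of that of the urea libraries. Of 18 aquaporins, the water channels of the plasma membrane and vacuole, 4 rose and 9 fell (median -0.51, with 1 and 13 at one total, 2 and 12 with quantiles). The log2 fold changes of PIP2;7, PIP1;4 and TIP2;2 were -2.46, -2.23 and -1.63, and that of PIP2;3 was 1.37. Urea library 1 had the highest share of signal of both lists. When L-Glu library 3 or urea library 2 was left out, 2 proton pump genes rose in place of 1.

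Plastid envelope carriers exchange sugars, organic acids and phosphate between chloroplast and cytosol, and 0 of 17 rose while 14 fell (median -1.31). TPT (AT5G46110), the triose phosphate translocator that exports fixed carbon from the chloroplast, had a signal of 137, 87.9 and 156 in the L-Glu libraries, against 2754, 1622 and 1602 in the urea libraries (log2 fold change -3.93, SE 0.225, limma adjusted p = 1.52e-11). The phosphate carriers PHT2;1 and PHT4;4 had log2 fold changes of -3.22 and -2.59, and DIT1, which brings 2-oxoglutarate into the plastid for ammonium assimilation, one of -2.51. Phosphate transporters as a whole, which include these plastid members, were split, with 5 of 12 up and 5 down (median 0.49). PHF1, which helps phosphate transporters leave the endoplasmic reticulum, rose by 1.63 log2 units (SE 0.201).

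Amino acid importers were split evenly, with 7 of 21 up and 7 down (median 0.16, with 6 and 11 at one total). The proline and betaine transporter gene PROT2 (AT3G55740) had a signal of 687, 455 and 637 in the L-Glu libraries, against 78.1, 53.0 and 39.1 in the urea libraries (log2 fold change 3.34, SE 0.242, limma adjusted p = 5.03e-10). LHT1, an importer of neutral and acidic amino acids, and CAT1, a transporter of basic ones, rose by 3.198 and 2.88 log2 units, whereas the permease gene AAP4 (AT5G63850) had a signal of 36.7, 32.5 and 44.8 with L-Glu, against 339, 255 and 226 with urea (log2 fold change -2.73, SE 0.222, limma adjusted p = 2.84e-09). Of 8 oligopeptide transporters 2 rose and 5 fell (median -0.57, with 1 and 6 at one total). OPT6 and OPT3, a carrier of iron and copper in the phloem, had log2 fold changes of -1.90 and -1.80, and OPT4 rose by 1.46 log2 units. Of 24 sugar transporters 7 rose and 9 fell (median 0.18, with 5 and 11 at one total). Without urea library 1, 8 rose and 6 fell, and without L-Glu library 2, 7 rose and 7 fell. SWEET11 (AT3G48740), a sucrose exporter that loads the phloem, had a signal of 38.9, 72.0 and 77.2 in the L-Glu libraries, against 1020.2, 576 and 637 in the urea libraries (log2 fold change -3.51, SE 0.244, limma adjusted p = 2.71e-10), and SWEET1, a glucose carrier, had a log2 fold change of -3.03. The hexose importer STP13 and the polyol and monosaccharide carrier PMT6 rose by 2.31 and 2.18 log2 units. Of 26 metal transporters 4 rose and 9 fell (median -0.11, with 2 and 15 at one total). The copper importer COPT1 and the zinc transporter ZIP11 had log2 fold changes of -2.47 and -2.32, and HMA4 (AT2G19110), which loads zinc into the xylem, had a signal of 773, 1070.3 and 835 in the L-Glu libraries, against 282, 295 and 264 in the urea libraries (log2 fold change 1.65, SE 0.19, limma adjusted p = 4.07e-07).

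**Figure D3:**
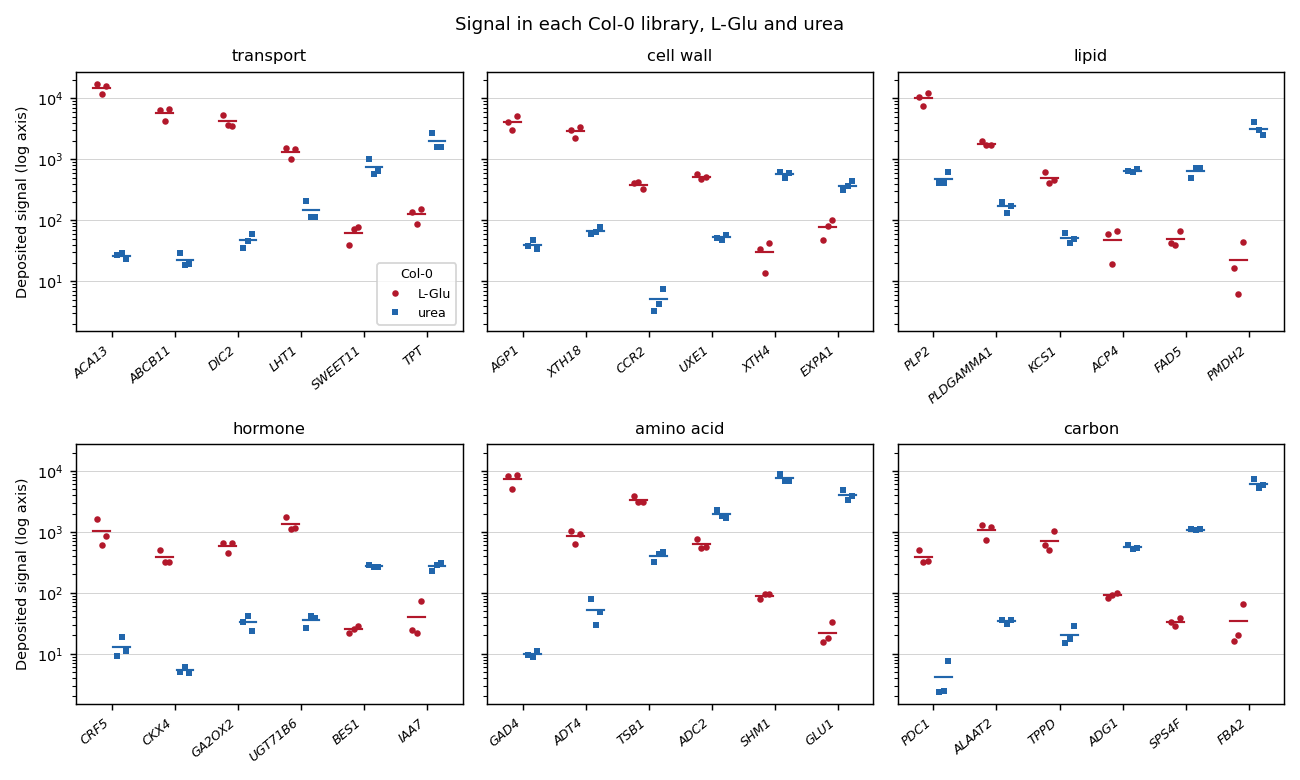
Deposited signal (vertical log axis) of 6 leading genes of each process in the Col-0 libraries, 3 with L-Glu (red circles) and 3 with urea (blue squares), with lines at the group means. The groups of each plotted gene do not overlap, from ACA13, at 11899 to 17401 with L-Glu and 22.9 to 28.8 with urea, to FBA2, at 16.4 to 66.7 with L-Glu and 5220.0 to 7249 with urea.

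In the cell wall, the 6 largest rises were those of AGP1, AGP16, AGP2, CCR2, XTH18 and XTH23. Falls outnumbered rises for cellulose, pectin, lignin monomers and the xyloglucan endotransglucosylase/hydrolases. Arabinogalactan proteins are glycoproteins of the wall and plasma membrane. Of 28 measured genes of these proteins and extensins, 10 rose and 10 fell (median -0.22, with 9 and 15 at one total). The list held 0.606% to 0.7% of the signal of the L-Glu libraries, against 0.157% to 0.237% of that of the urea libraries. AGP1 had a signal of 4117, 3007 and 5114 in the L-Glu libraries, against 38.3, 47.5 and 33.7 in the urea libraries (log2 fold change 6.54, SE 0.21, limma adjusted p = 5.69e-15). AGP16, AGP2 and AGP10 rose by 5.27, 5.11 and 4.29 log2 units. Xyloglucan endotransglucosylase/hydrolases cut and rejoin the xyloglucan chains that tie cellulose fibres together, and of 16 measured members 5 rose and 7 fell (median -0.64). XTH18 (AT4G30280) had a signal of 3015, 2273 and 3365 in the L-Glu libraries, against 60.7, 65.6 and 78.8 in the urea libraries (log2 fold change 5.32, SE 0.2, limma adjusted p = 4.31e-14), and XTH23 and XTH22 rose by 4.56 and 4.15 log2 units. XTH4 (AT2G06850), a member expressed in growing tissues, had a signal of 33.6, 13.8 and 43.4 with L-Glu, against 632, 498 and 602 with urea (log2 fold change -4.22, SE 0.322, limma adjusted p = 1.11e-09). Several XTH genes are close in sequence, so their reads may have been divided.

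Cellulose is made at the plasma membrane by complexes of CESA proteins. Of 9 primary wall cellulose genes, 1 rose and 6 fell (median -1.30). The catalytic subunit gene CESA3 (AT5G05170) had a signal of 257, 336 and 324 in the L-Glu libraries, against 895, 708 and 757 in the urea libraries (log2 fold change -1.36, SE 0.174, limma adjusted p = 1.68e-06). The endoglucanase KOR1 and the chitinase-like CTL1, both needed for cellulose synthesis, had log2 fold changes of -1.37 and -1.41. CESA2 (AT4G39350) had a signal of 725, 539 and 589.5 in the L-Glu libraries, against 254, 265 and 245 in the urea libraries (log2 fold change 1.26, SE 0.187, limma adjusted p = 1.04e-05), the opposite of CESA3. Pectin genes showed 5 rises and 13 falls among 26 (median -0.52, with 3 and 17 at one total, 3 and 14 with quantiles). UXE1 (AT1G30620), which makes the arabinose donor of wall polymers, had a signal of 578, 476 and 509 in the L-Glu libraries, against 52.3, 47.4 and 58.1 in the urea libraries (log2 fold change 3.23, SE 0.187, limma adjusted p = 1.78e-11). Of the pectin methylesterases, which change the charge of pectin, PME1 rose by 2.08 log2 units and PME3 had a log2 fold change of -2.05. The count of pectin genes that rose was 3 without L-Glu library 3 or urea library 2. Of 16 genes of xyloglucan and mannan synthesis 6 rose and 5 fell (median 0.12, with 4 and 8 at one total), and 3 fell without urea library 2. The xylosyltransferase gene XXT1 and the glucan synthase gene CSLC4 rose by 3.25 and 1.64 log2 units.

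Of 7 expansins, which loosen walls without cutting them, 4 rose and 1 fell (median 1.05, with 3 and 2 at one total), and 30 genes are listed. EXLA1 and EXLB1 both rose by 2.08 log2 units, EXPA6 rose by 1.29 log2 units, and EXPA1 (AT1G69530) had a signal of 48.5, 80.5 and 104 in the L-Glu libraries, against 310.2, 363 and 439 in the urea libraries (log2 fold change -2.26, SE 0.23, limma adjusted p = 7.72e-08). Callose, a glucan laid down at plasmodesmata and at sites of attack, is made by the GSL proteins. Of 10 measured genes 5 rose and 1 fell (median 0.49, with 2 and 4 at one total, 4 and 2 with quantiles), and 2 fell without L-Glu library 2. GSL05, GSL08 and GSL06 rose by 1.87, 1.43 and 1.15 log2 units, GSL06 not being called at one total, and GSL12 had a log2 fold change of -1.86. Among 18 genes of lignin monomers 2 rose and 5 fell (median 0.01, with 1 and 10 at one total, 2 and 10 with quantiles). CCR2 (AT1G80820), a cinnamoyl-CoA reductase known from responses to pathogens, had a signal of 407, 430.1 and 327 in the L-Glu libraries, against 3.29, 4.32 and 7.60 in the urea libraries (log2 fold change 5.54, SE 0.293, limma adjusted p = 4.64e-12), whereas CAD4, CYP98A3 and ELI3-1 of the same pathway had log2 fold changes of -1.75, -1.33 and -1.63. The lignin list was sensitive to single libraries: 8 fell and 1 rose without L-Glu library 2, 4 rose without L-Glu library 1, and 1 rose without urea library 2 or 3. Only 6 of 31 genes of the secondary wall and xylem were measured, and of these 3 rose and 2 fell (median 0.50, with 2 and 3 at one total). XCP2, a protease of dying xylem cells that is also among the vascular markers given above, had a log2 fold change of -2.46, and IRX10, a xylan synthase gene, one of 2.07. The part of vascular cells in these values was not tested.

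In lipid metabolism, plastid fatty acid synthesis had the highest share of falls of the 51 lists. Fatty acids are built in the plastid by acetyl-CoA carboxylase and the fatty acid synthase cycle, and of 23 measured genes 1 rose and 20 fell (median -1.93). The genes of the list held 0.0453% to 0.0554% of the signal of the L-Glu libraries, against 0.216% to 0.26% of that of the urea libraries. ACP4 (AT4G25050), an acyl carrier protein of leaves, had a signal of 59.3, 19.4 and 66.3 in the L-Glu libraries, against 649.9, 617 and 696 in the urea libraries (log2 fold change -3.82, SE 0.289, limma adjusted p = 9.47e-10). SSI2 (AT2G43710), the stearoyl-ACP desaturase, had a signal of 61.4, 68.2 and 76.1 in the L-Glu libraries, against 528, 535 and 459.6 in the urea libraries (log2 fold change -2.83, SE 0.18, limma adjusted p = 7.17e-11). CAC2, the biotin carboxylase subunit of acetyl-CoA carboxylase, had a log2 fold change of -2.52, and the condensing enzyme gene FAB1 one of -2.41. No L-Glu library of these 4 genes reached the lowest urea library.

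Desaturases of the plastid and enzymes of galactolipids, the main lipids of thylakoids, act on its products. Of 19 genes 4 rose and 12 fell (median -1.30). FAD5 (AT3G15850), which desaturates palmitate of the main galactolipid, had a signal of 43.2, 40.024 and 66.5 in the L-Glu libraries, against 496, 723 and 732 in the urea libraries (log2 fold change -3.62, SE 0.215, limma adjusted p = 2.51e-11), and FAD6, the plastid oleate desaturase, had a log2 fold change of -3.42. SFR2, a galactolipid remodelling enzyme of freezing tolerance, had a log2 fold change of -3.13. MGD2 (AT5G20410), a galactolipid synthase induced by phosphate starvation, had a signal of 208, 143 and 123 in the L-Glu libraries, against 17.9, 23.2 and 14.8 in the urea libraries (log2 fold change 2.85, SE 0.275, limma adjusted p = 3.45e-08), opposite to most of the list. Very-long-chain elongation and wax genes, which make the cuticle, had 5 rises and 17 falls among 26 (median -1.07, with 3 and 21 at one total). The elongase genes KCS8 and KCS10 had log2 fold changes of -2.75 and -2.22. KCS1 (AT1G01120) had a signal of 632, 406 and 456 in the L-Glu libraries, against 62.1, 43.0 and 49.0 in the urea libraries (log2 fold change 3.18, SE 0.22, limma adjusted p = 2.45e-10), and MYB96, an activator of wax genes under drought, rose by 3.02 log2 units. Of 10 measured genes of cutin and suberin 0 rose and 4 fell (median -0.51). The acyltransferases GPAT8 and GPAT4 had log2 fold changes of -2.09 and -1.35. Of the markers of shoot epidermis, guard cells and leaves given above, ATML1, AS1 and KCS10 fell, by log2 fold changes of -2.31, -2.25 and -2.22. FAMA (0.28) and KAT1 (-0.46) were not called. KCS10 is also in the wax list. The part of epidermal cells in these falls was not tested.

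In lipid signalling rises outnumbered falls, though not at one total. Of 29 genes of phospholipases and lipid signalling 13 rose and 5 fell (median 0.42, with 9 and 11 at one total, 13 and 8 with quantiles), and the list held 0.372% to 0.426% of the signal of the L-Glu libraries, against 0.156% to 0.182% of that of the urea libraries. As a share of library totals, which were larger with L-Glu, the difference was mostly that of PLP2. Without PLP2 the list held 0.148% to 0.180% with L-Glu and 0.141% to 0.165% with urea. PLP2 (AT2G26560), a patatin-like lipid acyl hydrolase, had a signal of 10725, 7466 and 12102 in the L-Glu libraries, against 415, 405 and 631 in the urea libraries (log2 fold change 4.38, SE 0.232, limma adjusted p = 4.80e-12). PLDGAMMA1, a phospholipase D, DGK2, a diacylglycerol kinase, and PLC5, a phospholipase C, rose by 3.41, 3.25 and 3.36 log2 units. Without urea library 1 the list had 15 rises and 8 falls. At one total the list median was -0.22, against -0.66 over all genes. Sphingolipid genes had 6 rises and 10 falls among 22 (median -0.30, with 4 and 13 at one total), and 6 falls without L-Glu library 3 or urea library 3. ERH1, an inositolphosphorylceramide synthase, and LCB1, a subunit of the first enzyme of the pathway, rose by 1.97 and 1.61 log2 units.

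The list of peroxisomal beta-oxidation and the glyoxylate cycle was near balance, with 9 rises and 7 falls among 32 (median 0.01, with 5 and 18 at one total, 6 and 11 with quantiles). Its largest change was that of PMDH2, a peroxisomal malate dehydrogenase that also serves photorespiration, which had a signal of 16.4, 6.26 and 44.5 in the L-Glu libraries, against 4043, 3063 and 2513 in the urea libraries (log2 fold change -7.22, SE 0.391, limma adjusted p = 6.56e-12). PNC2, the peroxisomal ATP carrier, rose by 1.91 log2 units, and ACN1, which activates acetate, had a log2 fold change of -1.34. Oil metabolism, with 4 rises and 4 falls among 15 (median 0.37, with 2 and 7 at one total), held the lipase gene SDP1-LIKE, which rose by 2.74 log2 units, and the acyltransferase gene PDAT, which had a log2 fold change of -1.17. Of 30 genes of sterols and isoprenoid precursors 5 rose and 12 fell (median -0.18, with 3 and 22 at one total). SQE5, a squalene epoxidase, had a log2 fold change of -3.18, the sterol methyltransferase SMT1 one of -1.73 and DWF1, which acts on the way to brassinosteroids, one of -1.85. MRO (AT5G42590), an oxidase of the triterpene marneral, had a signal of 90.7, 327 and 67.6 in the L-Glu libraries, against 6.24, 5.71 and 4.06 in the urea libraries (log2 fold change 3.89, SE 0.396, limma adjusted p = 7.47e-08), with L-Glu library 2 far above the others.

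Among hormone genes, falls outnumbered rises in 6 of the 8 lists, and cytokinin and abscisic acid were the others. Auxin transporters, which set the direction of auxin flow, had 1 rise and 9 falls among 13 (median -1.20). The efflux carrier PIN3 (AT1G70940) had a signal of 26.0, 52.3 and 43.1 in the L-Glu libraries, against 221, 192 and 166 in the urea libraries (log2 fold change -2.20, SE 0.233, limma adjusted p = 1.28e-07). PIN4 and PIN7 had log2 fold changes of -1.80 and -1.67 and the importer AUX1 one of -1.69. Aux/IAA repressors, which are degraded when auxin is perceived, and SAUR genes, which auxin induces, had 3 rises and 12 falls among 22 (median -0.83), and 5 rises without L-Glu library 2. IAA7 (AT3G23050) had a signal of 24.997, 22.2 and 72.6 in the L-Glu libraries, against 230.3, 285 and 310.0 in the urea libraries (log2 fold change -2.86, SE 0.301, limma adjusted p = 1.20e-07). IAA17 and IAA27 had log2 fold changes of -1.98 and -1.85, whereas IAA19 rose by 2.86 log2 units, with low urea values. Of 34 genes of auxin synthesis, conjugation and response 11 rose and 13 fell (median -0.20, with 8 and 21 at one total). Without urea library 1, 12 rose and 11 fell, and without L-Glu library 2, 12 rose and 12 fell. GH3.3 (AT2G23170), an enzyme that couples auxin to amino acids, had a signal of 502, 256 and 529.6 in the L-Glu libraries, against 30.2, 11.1 and 15.7 in the urea libraries (log2 fold change 4.29, SE 0.381, limma adjusted p = 1.07e-08), GH3.2 rose by 2.17 log2 units, NIT2, a nitrilase, by 3.90 log2 units and the response factor ARF19 by 2.50 log2 units.

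Cytokinin genes were balanced in number, with 12 rises and 11 falls among 37 (median -0.14, with 10 and 19 at one total), but the list held 0.247% to 0.321% of the signal of the L-Glu libraries, against 0.129% to 0.143% of that of the urea libraries. Without PUP14 it held 0.153% to 0.212% with L-Glu and 0.120% to 0.136% with urea. CKX4 (AT4G29740), a cytokinin oxidase that destroys the hormone, had a signal of 511, 318 and 324 in the L-Glu libraries, against 5.11, 6.16 and 4.91 in the urea libraries (log2 fold change 5.41, SE 0.244, limma adjusted p = 4.38e-13). The cytokinin response factors CRF5 and CRF6 rose by 5.89 and 5.72 log2 units, and PUP14 (AT1G19770), a cytokinin importer, had a signal of 4851, 3682 and 3069 in the L-Glu libraries, against 236, 243 and 182 in the urea libraries (log2 fold change 4.10, SE 0.218, limma adjusted p = 5.03e-12). The gibberellin list had 4 rises and 5 falls among 18 (median -0.34, with 2 and 12 at one total). GA2OX2 (AT1G30040), an oxidase that inactivates gibberellin, had a signal of 646, 458 and 651 in the L-Glu libraries, against 33.5, 42.4 and 23.8 in the urea libraries (log2 fold change 4.02, SE 0.237, limma adjusted p = 2.37e-11) and GA2OX6 rose by 2.77 log2 units, while GASA4, a gibberellin-regulated peptide gene, had a log2 fold change of -2.60 and KAO2, an enzyme of gibberellin synthesis, one of -1.77.

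Of 30 brassinosteroid genes 8 rose and 15 fell (median -0.40, with 4 and 17 at one total). BES1 (AT1G19350), a transcription factor that carries the brassinosteroid signal, had a signal of 21.8, 26.0 and 28.5 in the L-Glu libraries, against 287, 266 and 269.7 in the urea libraries (log2 fold change -3.27, SE 0.205, limma adjusted p = 5.68e-11), whereas its relative BEH3 (AT4G18890) had a signal of 633, 565 and 749.5 in the L-Glu libraries, against 28.8, 14.8 and 14.8 in the urea libraries (log2 fold change 4.87, SE 0.227, limma adjusted p = 7.46e-13). UGT73C5, which glucosylates and so inactivates brassinosteroids, rose by 4.56 log2 units, and BAK1, the co-receptor of brassinosteroid and of immune receptors, by 3.84 log2 units. Abscisic acid genes rose more often, with 14 rises and 7 falls among 29 (median 0.03, with 9 and 15 at one total). UGT71B6 (AT3G21780), which conjugates abscisic acid to glucose, had a signal of 1745, 1115 and 1178 in the L-Glu libraries, against 26.5, 42.4 and 39.1 in the urea libraries (log2 fold change 5.09, SE 0.212, limma adjusted p = 1.55e-13). AAO3, the oxidase of its last synthetic step, and CYP707A3, which breaks it down, rose by 4.01 and 3.85 log2 units. ABA1 (AT5G67030), the zeaxanthin epoxidase at the start of the route, had a signal of 147, 173 and 183 in the L-Glu libraries, against 1192, 1525 and 1823 in the urea libraries (log2 fold change -3.13, SE 0.186, limma adjusted p = 2.64e-11). Of 13 genes of strigolactones and karrikins 3 rose and 7 fell (median -0.69, with 1 and 10 at one total). The log2 fold changes of the synthesis gene MAX4, the karrikin receptor gene KAI2 and KUF1 were -2.15, -1.33 and 1.53.

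Among amino acid lists only the aromatic one had more rises than falls, and at one total it did not. Of 36 genes of lysine, threonine and methionine synthesis 2 rose and 20 fell (median -0.76), and the list held 0.14% to 0.199% of the signal of the L-Glu libraries, against 0.421% to 0.657% of that of the urea libraries. AGD2, an aminotransferase of lysine synthesis, had a log2 fold change of -1.95. SAHH2 (AT3G23810), which recycles S-adenosylhomocysteine, had a signal of 29.3, 52.3 and 44.7 in the L-Glu libraries, against 225, 214 and 228 in the urea libraries (log2 fold change -2.34, SE 0.282, limma adjusted p = 7.31e-07). HMT-1, a homocysteine methyltransferase, rose by 2.75 log2 units, and 4 genes of the list rose without urea library 1. Branched-chain synthesis had 1 rise and 7 falls among 13 (median -0.72, with 0 and 10 at one total). CSR1, the acetolactate synthase targeted by herbicides, had a log2 fold change of -1.44, and the 2 isopropylmalate synthase genes of leucine synthesis moved apart, with log2 fold changes of 1.06 for IPMS1 and -1.10 for IPMS2. IPMS1 was not called at one total. Breakdown of branched-chain amino acids and lysine had small changes: 3 of 14 rose, 3 fell (median 0.20, with 0 and 7 at one total, 1 and 5 with quantiles) and the log2 fold changes ran from -0.95 to 0.73. MCCB, a subunit of methylcrotonyl-CoA carboxylase, had a log2 fold change of 0.62, or -0.03 at one total, and 1 gene rose without L-Glu library 2.

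The shikimate pathway feeds phenylalanine, tyrosine and tryptophan, and through them lignin, camalexin and glucosinolates. Of 30 measured genes 9 rose and 6 fell (median -0.02, with 7 and 16 at one total), and 3 fell without urea library 1. TSB1 (AT5G54810), a subunit of tryptophan synthase, had a signal of 3867, 3117 and 3108 in the L-Glu libraries, against 323, 426 and 473 in the urea libraries (log2 fold change 3.04, SE 0.192, limma adjusted p = 6.51e-11). ADT4 (AT3G44720), an arogenate dehydratase of phenylalanine synthesis, had a signal of 1024, 630.1 and 923 in the L-Glu libraries, against 80.7, 29.9 and 48.130 in the urea libraries (log2 fold change 4.01, SE 0.312, limma adjusted p = 1.51e-09). The anthranilate synthase genes ASA1 and ASB1, at the entry to tryptophan, rose by 2.19 and 1.97 log2 units. The list held 0.208% to 0.25% of the signal of the L-Glu libraries, against 0.155% to 0.189% of that of the urea libraries. Without TSB1 these shares overlapped, at 0.137% to 0.170% with L-Glu and 0.138% to 0.176% with urea. They are shares of totals that were larger with L-Glu, so they do not show an overlap of deposited signal.

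Serine, glycine, cysteine and histidine synthesis had 2 rises and 14 falls among 29 (median -0.58). SHM1 (AT4G37930), the mitochondrial serine hydroxymethyltransferase of photorespiration, had a signal of 79.6, 95.4 and 94.3 in the L-Glu libraries, against 8823, 6826 and 6883 in the urea libraries (log2 fold change -6.33, SE 0.248, limma adjusted p = 7.68e-14). CYSC1, a mitochondrial enzyme that detoxifies cyanide, had a log2 fold change of -2.46 and OASB, a plastid cysteine synthase, one of -1.87, while SERAT2;1 (AT1G55920), which makes the serine-derived precursor of cysteine, had a signal of 1179.5, 1118 and 985 in the L-Glu libraries, against 116, 195 and 244 in the urea libraries (log2 fold change 2.602, SE 0.223, limma adjusted p = 6.25e-09). Arginine, ornithine and polyamine genes had 3 rises and 12 falls among 24 (median -0.57). The arginine decarboxylase gene ADC2 (AT4G34710), at the entry to polyamines, had a signal of 750.4, 539 and 575 in the L-Glu libraries, against 2308, 1836 and 1666 in the urea libraries (log2 fold change -1.64, SE 0.194, limma adjusted p = 5.91e-07), the thermospermine synthase ACL5 and the arginase ARGAH2 had log2 fold changes of -2.87 and -2.44, and the polyamine oxidase PAO4 rose by 2.18 log2 units.

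Of 29 genes that handle glutamate, glutamine, GABA, asparagine, aspartate and proline, 6 rose and 12 fell (median -0.20, with 2 and 19 at one total, 3 and 15 with quantiles). The glutamate decarboxylases, which turn glutamate into GABA, moved apart. GAD4 had a signal of 8264, 5048 and 8512 in the L-Glu libraries, against 9.46, 8.75 and 11.2 in the urea libraries (log2 fold change 9.06, SE 0.2, limma adjusted p = 7.11e-17), and GAD2 (AT1G65960) had a signal of 101, 121 and 174 in the L-Glu libraries, against 908, 739 and 1008 in the urea libraries (log2 fold change -2.74, SE 0.202, limma adjusted p = 6.47e-10). Ferredoxin-dependent glutamate synthase and plastid glutamine synthetase, which recapture ammonium in leaves, both fell: GLU1 (AT5G04140) had a signal of 15.3, 18.5 and 33.1 in the L-Glu libraries, against 4873, 3342 and 3859 in the urea libraries (log2 fold change -7.33, SE 0.345, limma adjusted p = 8.45e-13), and GS2 had a log2 fold change of -5.46 (SE 0.209). The list held 0.495% to 0.507% of the signal of the L-Glu libraries, against 0.88% to 1.07% of that of the urea libraries. Library totals were larger with L-Glu, so the deposited signal of the list differed by less than these shares.

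In carbon metabolism falls outnumbered rises for starch, sucrose, glycolysis, the pentose phosphate pathway, and fermentation and anaplerotic enzymes. Of 29 starch genes 4 rose and 19 fell (median -1.50), and the list held 0.0752% to 0.0795% of the signal of the L-Glu libraries, against 0.251% to 0.301% of that of the urea libraries. ADG1 (AT5G48300), the small subunit of ADP-glucose pyrophosphorylase, the committed step of starch synthesis, had a signal of 83.9, 93.6 and 98.4 in the L-Glu libraries, against 617, 525 and 542 in the urea libraries (log2 fold change -2.56, SE 0.184, limma adjusted p = 4.29e-10). Its partner APL1 had a log2 fold change of -2.44, the branching enzyme SBE2.2 one of -2.25 and PWD, a dikinase of starch breakdown, one of -2.39, so genes of synthesis and of breakdown fell. Sucrose genes had 8 rises and 11 falls among 26 (median -0.43). SPS4F (AT4G10120), a sucrose phosphate synthase, had a signal of 33.6, 28.8 and 38.5 in the L-Glu libraries, against 1108, 1057 and 1112 in the urea libraries (log2 fold change -4.89, SE 0.204, limma adjusted p = 1.57e-13), and FBP, the cytosolic fructose bisphosphatase, UGP2, a UDP-glucose pyrophosphorylase, and F2KP, which sets the level of fructose 2,6-bisphosphate, had log2 fold changes of -2.94, -2.70 and -2.46.

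Glycolysis, which the list takes in the cytosol and the plastid together, had 7 rises and 18 falls among 38 (median -0.61, with 5 and 27 at one total). Its plastid members include enzymes shared with the Calvin cycle, such as FBA2 and PGK1, so these counts are not those of glycolysis alone. The list held 0.268% to 0.3% of the signal of the L-Glu libraries, against 0.787% to 1.04% of that of the urea libraries. Without FBA2 it held 0.266% to 0.299% with L-Glu and 0.575% to 0.760% with urea. FBA2, a plastid aldolase, had a signal of 16.4, 20.3 and 66.7 in the L-Glu libraries, against 7249, 5220.0 and 5857 in the urea libraries (log2 fold change -7.56, SE 0.391, limma adjusted p = 3.44e-12). PGK1, a plastid phosphoglycerate kinase, had a log2 fold change of -5.38, the plastid pyruvate kinase gene PKP2 one of -2.85 and NP-GAPDH, a cytosolic NADP-dependent dehydrogenase, one of -4.72. The oxidative pentose phosphate list, which shares enzymes with the Calvin cycle, had 4 rises and 9 falls among 20 (median -0.31). TKL1, a plastid transketolase, and RPE, a plastid epimerase, had log2 fold changes of -3.67 and -3.39, whereas G6PD6 (AT5G40760), a cytosolic enzyme of the first step, had a signal of 417, 466 and 450.4 in the L-Glu libraries, against 124, 105 and 112 in the urea libraries (log2 fold change 1.93, SE 0.163, limma adjusted p = 5.08e-09).

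The tricarboxylic acid cycle was balanced, with 8 rises and 8 falls among 33 (median -0.14, with 5 and 20 at one total, 5 and 13 with quantiles). MTLPD1 (AT1G48030), a lipoamide dehydrogenase of mitochondria, had a signal of 186, 171 and 192 in the L-Glu libraries, against 931, 997 and 1085 in the urea libraries (log2 fold change -2.43, SE 0.168, limma adjusted p = 2.53e-10), and the malate dehydrogenase MMDH1 had a log2 fold change of -1.86. AT3G55410, annotated as the E1 component of 2-oxoglutarate dehydrogenase, the enzyme that consumes the carbon skeleton of glutamate, had a signal of 851, 741 and 756 in the L-Glu libraries, against 353, 242 and 205 in the urea libraries (log2 fold change 1.58, SE 0.197, limma adjusted p = 1.23e-06), and AT4G26910, annotated as a dihydrolipoamide succinyltransferase of the same complex, rose by 1.37 log2 units. Fermentation and anaplerotic enzymes had 10 rises and 12 falls among 25 (median -0.22, with 7 and 14 at one total). PDC1 (AT4G33070), a pyruvate decarboxylase known from oxygen shortage, had a signal of 511, 315 and 338 in the L-Glu libraries, against 2.38, 2.48 and 7.60 in the urea libraries (log2 fold change 5.71, SE 0.308, limma adjusted p = 6.07e-12), and ALAAT2 (AT1G72330), which exchanges amino groups between alanine and glutamate, had a signal of 1289, 739 and 1192 in the L-Glu libraries, against 36.3, 30.5 and 36.4 in the urea libraries (log2 fold change 4.79, SE 0.199, limma adjusted p = 1.45e-13). PPCK1, the kinase of phosphoenolpyruvate carboxylase, rose by 3.05 log2 units, and RP1, the regulatory protein of pyruvate phosphate dikinase, had a log2 fold change of -3.47. Of 23 genes of trehalose, raffinose and inositol 11 rose and 9 fell (median 0.25, with 3 and 12 at one total, 8 and 10 with quantiles). TPPD (AT1G35910), a trehalose phosphate phosphatase, had a signal of 603, 507 and 1044 in the L-Glu libraries, against 15.3, 17.3 and 28.3 in the urea libraries (log2 fold change 4.89, SE 0.261, limma adjusted p = 5.22e-12). MIPS1 and MIPS3, which make inositol phosphate, had log2 fold changes of -3.09 and -2.94, and MIOX1, which oxidizes inositol, rose by 2.72 log2 units.

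The same treatments in sid2 allow a comparison with libraries that share no control with those of Col-0. The gene that sid2 lacks in function, EDS16 (AT1G74710), had a signal of 5421 to 7434 with L-Glu and 29.8 to 65.4 with urea in sid2, and of 7461 to 10896 with L-Glu and 89.6 to 100.1 with urea in Col-0, so its transcript does not check the genotype labels. In sid2 64.4% of all genes were called, 32.0% up and 32.4% down. Of the listed members 279 rose and 541 fell there, with a median of -0.49 against -0.31 in Col-0. List medians were lower in sid2 than in Col-0 for 38 of the 51 lists and higher for 13. The plastid fatty acid list had a median of -2.15 in sid2 and -1.93 in Col-0, and starch genes had -1.93 in sid2 and -1.50 in Col-0. Lignin genes had -1.22 in sid2 and 0.01 in Col-0, but the Col-0 value was -0.42 without L-Glu library 2 and -0.55 with quantile normalization. The other way, branched-chain amino acid synthesis had 0.03 in sid2 and -0.72 in Col-0, and the xyloglucan endotransglucosylase/hydrolases -0.06 in sid2 and -0.64 in Col-0. The differences between these medians were not tested. The log2 fold changes in sid2 were 9.04 for GAD4, 9.24 for ACA13, 8.35 for ABCB11 and -6.87 for FBA2. The difference between the genotypes, tested as an interaction, was called for 25 of the 1133 listed members, against 1.95% of all genes, and 2511 of the 14897 genes had an unadjusted p under 0.05. Across all genes 291 were called, 498 with the replicate number as a block, and 9 to 367 when each library was left out in turn, with the fewest without sid2 L-Glu library 2. Among the named genes these were IAA7, XTH23, SAHH2, MYB63, ALAAT2 and ARF19 of the lists and WRKY30, and for the rest a difference was not detected at this spread.

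**Figure D4:**
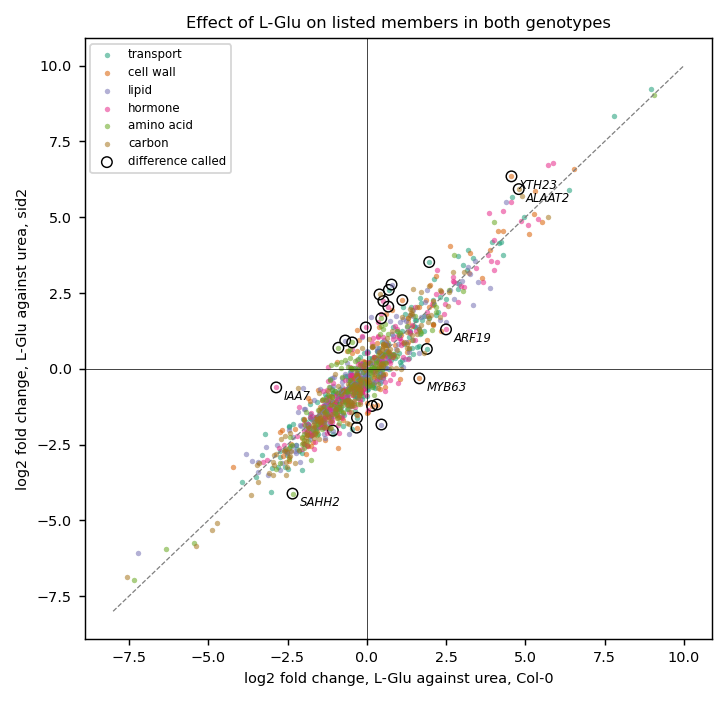
Log2 fold change of L-Glu against urea in sid2 (vertical axis) and in Col-0 (horizontal axis) for the 1133 listed members, coloured by process. Circles mark the 25 members whose difference between genotypes was called, the dashed line marks equal effects, and the 6 named ones are labelled, with IAA7 at -0.61 in sid2 and -2.86 in Col-0.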

How the data were processed

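RNA from whole seedlings was sequenced in 12 libraries. The authors deposited 1 table of normalized signal per gene, and how it was normalized is not given in the sources used here. The submitters' processing notes name TopHat2 2.1.0, HTSeq 0.6.0, edgeR 3.22.3 and TAIR10, with no role or order. Signal was divided by 3.49211, a pseudocount of 1 was added, and log2 values of all 12 libraries were fitted with limma 3.58.1 (R 4.3.3), with a trended variance, 4 group means, two-sided tests, 8 residual degrees of freedom and Benjamini-Hochberg adjustment over 14897 genes. The analysis was tested on simulated data. Depth is unknown, so no counting intervals are given. Genes were named by rule. In every list these were the 4 genes of lowest p in Col-0 (fewer where fewer were measured), with no minimum level. Over the whole table these were the 10 largest called changes in each direction, and only for these had the 12-library mean to reach 5 scaled units and the treatments not to overlap. Of the identifiers, 99.5% matched the annotation. Members, lists and motifs were chosen with earlier results of these data known. Alternatives were other pseudocounts, scalings, filters, weights, the replicate block and omission of each library. Promoter windows came from RefSeq TAIR10.1, with Python 3.11.15.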

Additional observations from a re-analysis of the deposited data

Results flagged for a closer look

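A difference between the 2 genotypes in the effect of L-Glu, tested as an interaction in limma over all genes, marked 7 of the named genes. Values are sid2 minus Col-0 differences of log2 fold changes with their SE, and each call was repeated with each of the 12 libraries left out in turn. IAA7, an auxin response repressor, differed by 2.24 (SE 0.426, adjusted p = 0.0184). It had a signal of 174, 198 and 135 with L-Glu and 247, 292 and 235 with urea in sid2, and 24.997, 22.2 and 72.6 with L-Glu and 230.3, 285 and 310.0 with urea in Col-0, so L-Glu left it higher in sid2. The call held in 9 of the 12 omissions. WRKY30, a transcription factor induced by pathogens, differed by -1.72 (SE 0.355, adjusted p = 0.0245), and rose by 9.05 log2 units in sid2 and 10.77 in Col-0, with the call kept in 9. XTH23, the xyloglucan enzyme, differed by 1.79 (SE 0.393, adjusted p = 0.0317), with rises of 6.35 in sid2 and 4.56 in Col-0, kept in 6. SAHH2 differed by -1.78 (SE 0.399, adjusted p = 0.0326), with log2 fold changes of -4.12 in sid2 and -2.34 in Col-0, kept in 6.

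The other 3 calls were lost more often. MYB63, an activator of lignin genes, differed by -1.97 (SE 0.477, adjusted p = 0.0393), and the call held in 2 of 12 omissions. Its signal was 14.7, 6.78 and 9.14 with L-Glu and 9.74, 12.0 and 18.8 with urea in sid2, and 22.3, 28.5 and 30.6 with L-Glu and 2.68, 10.3 and 7.04 with urea in Col-0, which is low for the table. ALAAT2 differed by 1.14 (SE 0.281, adjusted p = 0.043), with rises of 5.93 in sid2 and 4.79 in Col-0, kept in 3. ARF19 differed by -1.20 (SE 0.299, adjusted p = 0.0438), with rises of 1.30 in sid2 and 2.50 in Col-0, kept in 1. All groups hold 3 libraries, too few for a rule on single outlying libraries.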

How the results depend on the processing

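The 4426 rises and 4520 falls became 2753 and 7833 at one total, the 288 and 466 of listed members 189 and 707, and the listed median of -0.31 became -0.94 at one total and -0.47 with quantile normalization. The L-Glu totals exceed the urea totals, and this scaling moves all genes together. MCCB reversed at one total, at -0.034 against 0.62. The other settings left these counts within 1.5 times. The count of genotype differences, 291, was 453 with a pseudocount of 5, 153 with quantile normalization, 627 with library quality weights and 498 with the replicate block, and ran between 9 and 367 over the omissions of single libraries. Leaving out sid2 L-Glu library 2 gave the 9, sid2 urea library 3 gave 41, and Col-0 L-Glu library 2 gave 43. Replicate numbers are shared between groups. Deviations of same-numbered libraries from their group means correlated at 0.080, 0.025 and 0.054 in Col-0 and at 0.108, 0.266 and 0.189 in sid2. Whether a number marks a shared batch is not labelled and cannot be told from these values. With the replicate block 4501 genes rose and 4642 fell in Col-0. Of the 219 named genes, which were chosen by p-value or size of change, 215 kept their call in every setting. Among the 754 called listed members 583 did. Depth is unknown, so low values such as those of MYB63 or of PDC1 with urea carry an unknown counting error.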

Other observations

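Outside the process lists, the 10 highest and 10 lowest log2 fold changes of the table belonged in part to other functions. These genes were chosen for their size of change, so their values are a description. BCS1 (AT3G50930), which encodes a mitochondrial ATPase, had a signal of 30042, 22425 and 32266 in the L-Glu libraries, against 42.7, 33.2 and 40.1 in the urea libraries (log2 fold change 9.38, SE 0.191, limma adjusted p = 6.37e-17). UGT74E2 (AT1G05680), which glucosylates the auxin precursor indole-3-butyric acid, had a signal of 13539.6, 9869 and 13115 in the L-Glu libraries, against 10.9, 9.39 and 12.1 in the urea libraries. The calcium sensor gene CML37, the kinase gene AGC2-1 and the peroxidase gene PER4 rose by 10.12, 10.15 and 9.33 log2 units, and the signal of CML37 with urea was 2.00, 1.26 and 13.025. At the other end, photorespiration and carbon fixation genes stood beside PMDH2, GLU1 and FBA2. GOX1, a glycolate oxidase, GDCH, a subunit of glycine decarboxylase, and RCA, the rubisco activase, had log2 fold changes of -7.58, -7.02 and -7.58. AT2G45180, annotated as a lipid transfer family protein, had a signal of 13.2, 5.32 and 26.950 in the L-Glu libraries, against 1219, 2996 and 2154 in the urea libraries (log2 fold change -6.92, SE 0.339, limma adjusted p = 1.56e-12). All of these kept their call and direction in every setting tried.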
